A study of Mus musculus with 20 samples.

Results

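Arrays 4 and 5 of the control postnatal progenitors carried low signals for Mki67, the gene of the proliferation antigen Ki-67, and are called the low cycling arrays here. They are 2 of the 5 arrays of their group and 2 of the 20 arrays of the series, and they were set against arrays 1, 2 and 3 of the same group, the cycling arrays. They were selected on measured values, the signals of Mki67: it read 5929 and 4351 on arrays 4 and 5, and the nearest value outside, on array 2, was 34816. The sets were formed on this contrast, so every difference between these sets of arrays is a description, with no test.

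The RNA came from progenitor cell lines of the mouse brain and was hybridised to Affymetrix oligonucleotide arrays, 1 sample to an array. The 4 groups of 5 arrays were embryonic progenitors as controls, embryonic progenitors after transduction (a genetic modification), postnatal progenitors as controls and postnatal progenitors after transformation. The labels name neither the introduced sequence nor the transforming agent, and give no strain, sex, exact age, culture condition or time in culture. Samples are numbered, but whether each was its own culture is not said, and the spread behind the p-values below may be technical.

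Progenitors of the oligodendrocyte lineage divide while they carry the receptor gene Pdgfra and the proteoglycan gene Cspg4. When they leave the cell cycle they pass through a short premyelinating stage, known for Gpr17, Bcas1, Enpp6 and Bmp4, and then switch on myelin genes under the transcription factor Myrf. Genes of mitosis are known to be transcribed late in the cycle through promoter elements called CHR and CCAAT, and many genes of DNA replication through E2F sites.

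All members of both lists were low on arrays 4 and 5, and 8 promoters were picked to show what these elements look like, after the letters had been found in them. They are not a sample of the lists. Of 13 mitosis windows of this length that were examined, 5 held CHR letters, 9 held CCAAT and 4 (Nusap1, Birc5, Ndc80 and Nuf2) held none of the letters searched. Of 18 DNA replication windows, 6 held an E2F core, 10 held CCAAT and 5 held none of the letters. Each line gives the 150 bases before the start of the gene from RefSeq, build GRCm38.p6, read 5′ to 3′ on the gene's strand. Capitals mark the CHR letters TTTGAA or TTTAAA, the letters CCAAT and the E2F cores TTCCCGC or else TTGGCGC or else TTCGCGC or else TTGCCGC, each on either strand, and a match is a description, not a bound site. In Mcm6, capitals of 10 letters are E2F cores of both strands that overlap.
Kif11, a mitotic kinesin, chr19:37376232-37376381, plus strand: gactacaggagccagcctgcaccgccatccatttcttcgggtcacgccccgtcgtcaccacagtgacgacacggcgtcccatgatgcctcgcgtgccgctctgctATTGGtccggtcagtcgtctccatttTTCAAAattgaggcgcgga
Bub1, a spindle checkpoint kinase, chr2:127831860-127832009, minus strand: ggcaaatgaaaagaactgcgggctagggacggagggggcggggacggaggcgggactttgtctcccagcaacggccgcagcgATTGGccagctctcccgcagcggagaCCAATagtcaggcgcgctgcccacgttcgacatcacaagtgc
Cdk1, the mitotic kinase, chr10:69352913-69353062, minus strand: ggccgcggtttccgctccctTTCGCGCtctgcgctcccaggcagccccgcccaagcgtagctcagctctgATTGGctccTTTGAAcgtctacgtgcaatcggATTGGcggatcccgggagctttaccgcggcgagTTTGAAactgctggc
Plk1, a polo-like mitotic kinase, chr7:122159285-122159434, plus strand: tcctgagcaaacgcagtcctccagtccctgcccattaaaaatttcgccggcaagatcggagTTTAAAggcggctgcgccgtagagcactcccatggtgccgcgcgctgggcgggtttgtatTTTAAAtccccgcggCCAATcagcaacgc
Cdc20, an activator of the anaphase-promoting complex, chr4:118437344-118437493, minus strand: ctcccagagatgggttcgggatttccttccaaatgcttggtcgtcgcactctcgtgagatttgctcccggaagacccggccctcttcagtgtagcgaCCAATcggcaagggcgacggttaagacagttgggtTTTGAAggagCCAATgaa
Mcm6, a subunit of the replicative helicase, chr1:128359706-128359855, minus strand: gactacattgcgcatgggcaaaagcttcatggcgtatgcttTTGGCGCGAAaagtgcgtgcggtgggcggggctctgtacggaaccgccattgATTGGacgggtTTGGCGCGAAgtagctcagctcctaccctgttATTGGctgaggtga
Rrm1, the large subunit of ribonucleotide reductase, chr7:102441545-102441694, plus strand: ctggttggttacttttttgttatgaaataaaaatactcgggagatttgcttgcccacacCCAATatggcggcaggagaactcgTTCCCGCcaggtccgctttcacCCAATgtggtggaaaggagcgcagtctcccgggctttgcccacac
Uhrf1, a factor that maintains DNA methylation at replication, chr17:56303187-56303336, plus strand: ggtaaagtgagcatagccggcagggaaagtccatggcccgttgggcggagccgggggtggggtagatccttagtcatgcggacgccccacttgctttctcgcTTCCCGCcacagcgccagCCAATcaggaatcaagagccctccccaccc

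The letters were counted over the 250 bases before the start. Promoters left out of the windows above were kept in this count, so some of these stretches can overlap the annotated span of their gene. Of the 29 measured genes of a mitosis list, 25 had a promoter in the table, and 12 of these (48.0%) held a CHR element, against 19.7% of the 14452 promoters of all measured genes and 25.5% of the 27025 promoters of the whole table. CCAAT stood in 20 of the 25 (80.0%) against 35.7% of measured genes, and at 2 or more places in 13 (52.0%) against 12.1%. An E2F core occurred in 3 of the 25, against 11.6% of measured genes. Among DNA replication genes 13 of 27 promoters (48.1%) held an E2F core and 5 (18.5%) a CHR element. CCAAT stood in 16 of the 27 (59.3%) and at 2 or more places in 8 (29.6%), also above the shares of measured genes. Premyelinating genes held an E2F core in 0 of 13 promoters and CCAAT in 3. Over all 668 promoters of genes that were lower on arrays 4 and 5, by the rule given next, CHR letters stood in 22.6%, CCAAT in 43.4% and an E2F core in 17.5%.

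Signals were compared as log2(signal + 16), and 18193 genes were measured. A gene is called higher or lower on the low cycling arrays where the set means differed at least 2-fold, the sets did not overlap, and every array of the brighter set was above background. By this rule 482 genes were higher (2.65%) and 858 were lower (4.72%), so that 64.03% of the 1340 differences were to the lower side. The median difference over all genes was -0.0085 on the log2 scale. Counts within each list below are to be read beside these shares, 2.65% higher and 4.72% lower. Sets of 3 and 2 arrays often do not overlap. Without overlap, whatever the size of the difference, 3883 genes (21.3%) were higher and 3901 (21.4%) lower. Absence of overlap thus says little by itself, and every gene called here lacks overlap by the rule. Without array 4 the counts were 852 and 1041 and without array 5 they were 767 and 903, as fewer arrays must then stay apart. Past 4-fold, 101 genes were higher and 255 lower. Arrays 4 and 5 were close to each other: 102 genes above background on all 5 arrays (0.889%) were 2-fold apart between them, against 168 to 425 between pairs of arrays 1 to 3 and 1074 to 1365 between arrays of different sets.

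**Figure D1:**
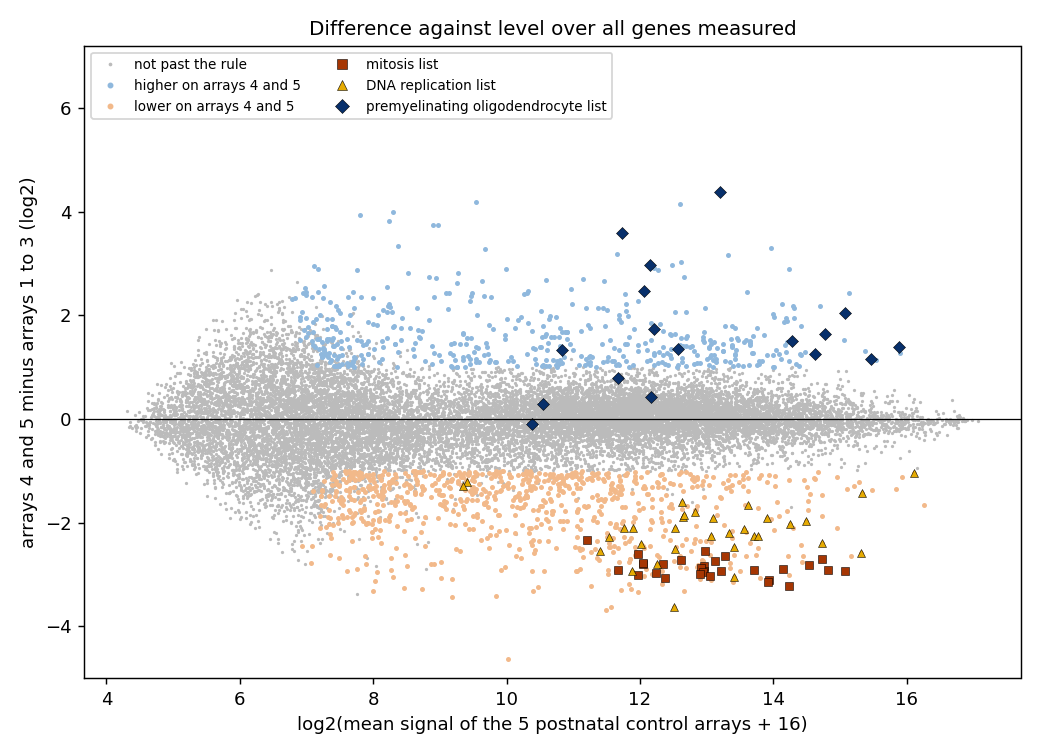
The difference between arrays 4 and 5 and arrays 1 to 3 (vertical axis, log2) is plotted against the log2 mean signal of the 5 postnatal control arrays (horizontal axis) for each of 18193 genes as a point. Members of the mitosis list form a narrow band between -3.21 and -2.33, and 13 of the 17 premyelinating members lie past 1 on the upper side.

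Measures of RNA quality and array background differed little. The log2 ratio of 3′ to 5′ control probe sets for Gapdh ran from -0.475 to -0.414 on arrays 1 to 3 and was -0.508 and -0.474 on arrays 4 and 5. Background lay between 120 and 159 on the cycling arrays and at 160 and 170 on the low cycling arrays, and 73.4% to 76.1% of genes exceeded it on the former against 71.5% and 70.8% on the latter. The part of this step in the differences below was not tested. Markers of microglia (14 genes), endothelium (10) and pericytes and fibroblasts (12) held no member past the rule. Microglial Aif1, Itgam, Tyrobp, C1qa and Cd14 and endothelial Pecam1, Cdh5, Tek, Tie1 and Emcn were below background on all 5 arrays, and the summed microglial signal was 2047 to 2280 on arrays 1 to 3 and 1711 and 2131 on arrays 4 and 5. Eif2s3y, on the Y chromosome, read 2752, 2809, 2937, 4856 and 4484 on arrays 1 to 5, while Xist, expressed from the inactive X chromosome, read 36257, 37963, 40710, 28023 and 36983. Both genes were above background on all 5 arrays, and neither passed the rule. The Eif2s3y sets did not overlap, as in 42.8% of all genes. With Kdm5d and Uty, also on the Y chromosome, the 4 measured sex-linked genes had a median difference of 0.63. Their differences ran from -0.25, for Xist, to 0.73, and none passed the rule. The part of these steps in the other differences was not tested.

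Of the 8 markers named with this comparison, 6 were lower on arrays 4 and 5, 1 was higher and 1 did not pass the rule. Mki67 read 37266, 34816 and 35822 on arrays 1 to 3 and 5929 and 4351 on arrays 4 and 5, a difference of -2.82 with a within-set SD of 0.19 on the log2 scale. Kif11, whose promoter is shown above, read 12351, 12111 and 12096 against 1792 and 1605 (-2.83). Bub1 read 12826, 13351 and 14213 against 1920 and 2098 (-2.73). The cycling arrays were tightly grouped and high for all 3 genes and the low cycling arrays 6.66- to 7.13-fold lower. In bulk RNA a smaller number of cycling cells and less of these RNAs in each cell cannot be told apart.

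Mcm7, a helicase subunit loaded at replication origins, had signals of 55950, 52261 and 56298 on arrays 1 to 3 and of 20596 and 20184 on arrays 4 and 5. It stayed far above background everywhere and was lower by less than the mitotic genes (-1.43). Nes, the intermediate filament gene of neural stem cells, read 4095, 4640 and 4829 against 1705 and 648 (-2.08). Here the low arrays differed from each other by 1.37 on the log2 scale. Egfr, a growth factor receptor of activated stem cells, read 2946, 3640, 1821, 1618 and 1441 on arrays 1 to 5 and did not pass (-0.81). Array 3 lay close to the low arrays for Egfr, and its 7 probe sets ran from -1.53 to 0.73.

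Cdkn1a encodes p21, an inhibitor of cyclin-dependent kinases that is known for its role in cell cycle arrest after DNA damage. It read 12683, 26071 and 16904 on arrays 1 to 3 and 2689 and 2959 on arrays 4 and 5, 6.26-fold lower (-2.65, within-set SD 0.43). The low cycling arrays thus carried less Cdkn1a than any cycling array, and both probe sets of the gene were lower (-2.65 and -2.27). Myrf was the marker that was higher: it read 1282, 1437 and 925 against 9254 and 9640, a 7.81-fold difference (2.97, within-set SD 0.27).

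**Figure D2:**
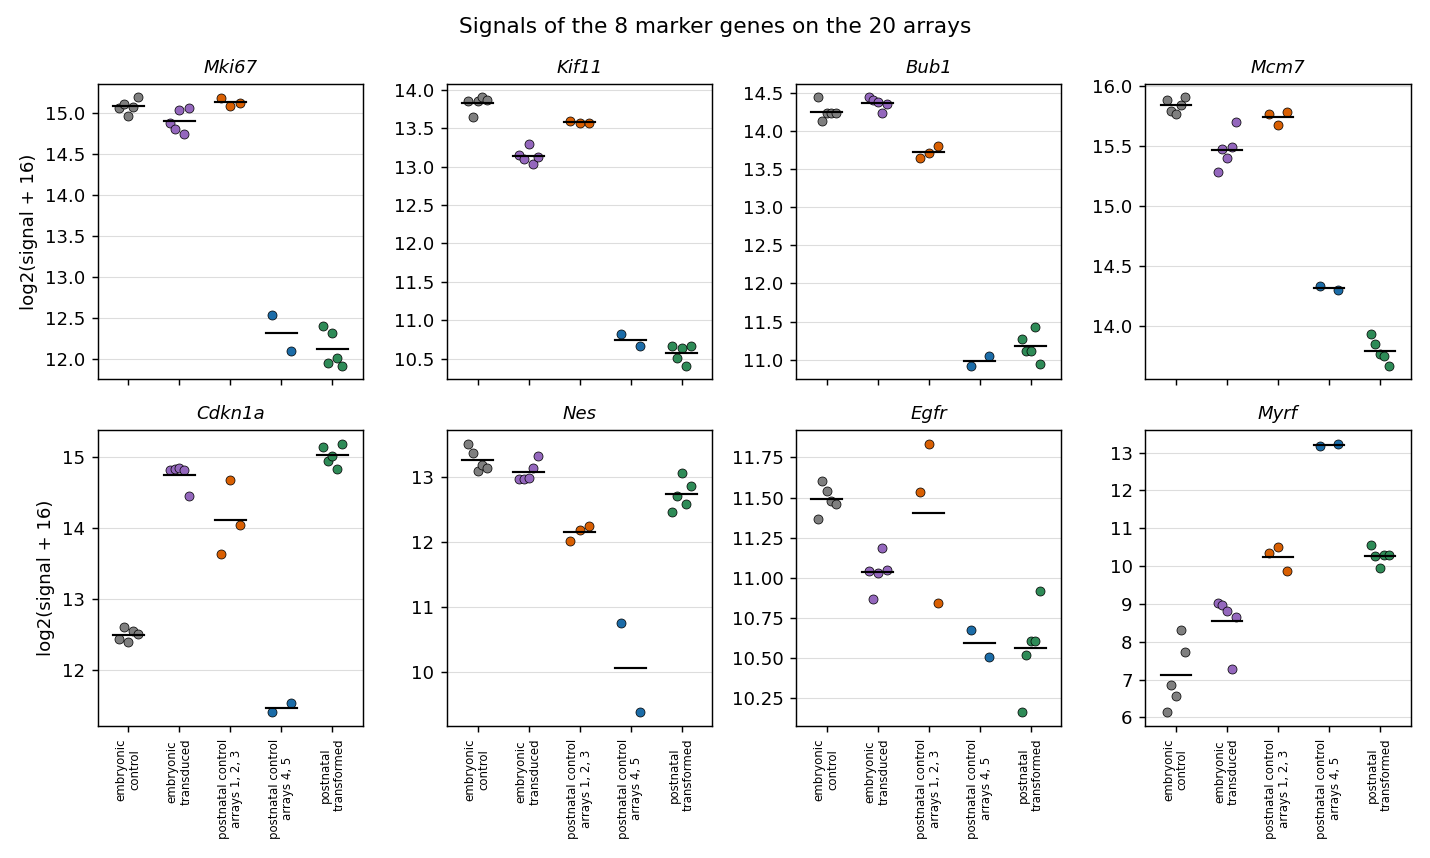
Each point is the log2(signal + 16) of a marker gene on an array (vertical axes, which do not start at 0 and differ between panels), grouped into embryonic control, embryonic transduced, postnatal control arrays 1 to 3, postnatal control arrays 4 and 5 and postnatal transformed arrays, with bars at the means. For Mki67, Kif11, Bub1 and Mcm7, postnatal control arrays 4 and 5 lie near the postnatal transformed arrays and far below the others, for Cdkn1a they lie below all other arrays and for Myrf above them.

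Mitosis genes were lower on arrays 4 and 5 without exception among the 29 measured of the 30 listed, and the rule that chose the arrays used Mki67, which belongs to them. Their differences ran from -3.21 to -2.33 with a median of -2.90, and the list's mean level differed by 0.10 at most within either set. Cdk1 read 29937, 29486 and 30441 on arrays 1 to 3 and 3701 and 2794 on arrays 4 and 5, a 9.27-fold difference. Birc5, the survivin gene of the chromosomal passenger complex, read 25133, 23033 and 23500 against 2813 and 2543 (-3.15). Cenpa, the centromeric histone, read 23724, 22579 and 26244 against 2725 and 2871 (-3.10). These 3 genes and the passenger kinase Aurkb (7885, 8135 and 8498 against 1080 and 860) shared a step of 8.36- to 9.27-fold. Plk1 read 12612, 12010 and 11470 against 1605 and 1497, and Cdc20 read 55545, 50805 and 52967 against 7453 and 6417, and both stood at -2.94. Of the mitosis genes whose promoters are printed, Kif11, Cdk1, Plk1 and Cdc20 hold CHR letters and differed by -3.21 to -2.83. Bub1, with CCAAT at 2 places and no CHR letters, differed by -2.73. Birc5, whose window held none of the letters, differed by -3.15. A relation of the letters to the size of a difference was not tested.

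DNA replication genes were lower in all 32 measured members of 34, but less steeply, with a median of -2.11 and a range from -3.63 to -1.05. Tk1, the thymidine kinase of S phase, read 8111, 9598 and 10023 on arrays 1 to 3 and 673 and 787 on arrays 4 and 5. This 12.4-fold difference was the largest of the list. Uhrf1 read 14922, 18741 and 16717 against 1886 and 2134 (-3.05), Pole, the catalytic subunit of the leading-strand polymerase, read 5308, 6299 and 5591 against 648 and 829 (-2.94), and Rrm2, the small subunit of ribonucleotide reductase, read 56529, 65738 and 60652 against 11429 and 9054 (-2.58). By the rule, no member overlapped between the sets. Pcna, the sliding clamp of DNA polymerases, which also serves in repair, was at the other end of the range with 92691, 86108 and 89182 against 42984 and 43461, a 2.06-fold difference. Among genes listed with histones, H2ax (-1.44) and the histone mRNA binding protein gene Slbp (-1.22) were lower, and 4 of the 12 genes of that list were measured.

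The largest differences to the lower side held further genes of division. Ska1, which couples kinetochores to microtubules, read 4507, 4676 and 4452 on arrays 1 to 3 and 394 and 294 on arrays 4 and 5, a 12.8-fold difference. Cdc25c, the phosphatase that activates Cdk1, read 5061, 4449 and 4761 against 296 and 458 (12.4-fold). Melk, Dlgap5, Depdc1a, Cenpp, Kif18a, Spc24 and Arhgap11a, genes of the dividing cell, differed by -3.31 to -3.15, and Ticrr, needed to start replication, by -3.32. Haspin, a histone kinase of mitosis, read 1414, 1884 and 1667 against 166 and 9, and array 5 lay below background. Of the 15 largest falls, Tubb6 and Hmga2 belong less closely to division. Tubb6, a beta tubulin, read 4663, 9003 and 4990 against 905 and 362 (-3.34), and its other probe set gave -0.29. Hmga2, a chromatin protein of fetal and tumour cells, read 1090, 3113 and 2407 against 166 and 238 (-3.24), and its 4 probe sets ran from -3.24 to 0.02.

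The machinery of G1 was lower in part. Of 21 measured G1 cyclin and E2F genes, 10 were lower, none was higher, and the median was -0.81. E2f1, a driver of S phase entry, read 1407, 2259 and 2254 on arrays 1 to 3 and 349 and 341 on arrays 4 and 5 (-2.43), and Ccne2, an S phase cyclin, read 7661, 11380 and 8978 against 2064 and 1389 (-2.43). Ccna2, cyclin A2, read 28536, 29479 and 28186 against 4618 and 4520 (-2.65). These genes of the S phase transition passed the rule, so their sets did not overlap. Cdk4, the kinase partner of D cyclins, read 46574, 39991 and 47396 against 41919 and 42977 (-0.07), and its sets overlapped. Ccnd2, a D cyclin, read 30579, 52140 and 36773 against 23565 and 21934 and did not pass (-0.77).

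Inhibitors of cyclin-dependent kinases moved in both directions, with 1 higher (14.3%) and 2 lower (28.6%) of 7. Of all genes 2.65% were higher and 4.72% lower. Cdkn1c, which encodes p57 and is known from cells that leave the cycle during development, read 3832, 4269 and 4480 on arrays 1 to 3 and 8969 and 10048 on arrays 4 and 5, 2.26-fold higher. Cdkn2c read 15254, 15363 and 16499 against 6465 and 6311 (-1.29). Cdkn1b, which encodes p27, read 18165, 13726, 14786, 14367 and 12987 on arrays 1 to 5, with overlapping sets. On a list of p53 targets 5 of 19 were lower (26.3%) and 1 was higher (5.26%). Pmaip1, a death gene, was lower (-2.10), as was Ckap2 (-2.13), also known as a mitotic gene. Gadd45a, a growth arrest gene, was the higher member (1.21). A senescence secretome list had 3 of 15 lower (Timp1, Igfbp4 and Lmnb1) and none higher.

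Of the 35 lists, that of premyelinating oligodendrocytes had the largest share of members that were higher. Of 17 measured premyelinating genes (18 listed), 13 were higher and none lower, with a median of 1.40 against -0.0085 over all genes. Bmp4, a ligand that premyelinating cells secrete, ranked highest of the 482 genes with background as a floor and clone names passed over. It read 1442, 1020 and 752 on arrays 1 to 3 and 20760 and 22945 on arrays 4 and 5, a 20.8-fold difference. Enpp6, a choline phosphodiesterase of newly forming oligodendrocytes, read 718, 1085 and 280 against 7488 and 7412 (3.59 on the log2 scale). Both genes stood above background on the cycling arrays too, where Enpp6 was uneven (within-set SD 0.79).

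Itpr2, a calcium channel of the endoplasmic reticulum, read 1347, 1672 and 1463 on arrays 1 to 3 and 7726 and 9080 on arrays 4 and 5 (2.48). Sirt2, a deacetylase of the oligodendrocyte cytoplasm, read 17684, 15484 and 12943 against 58666 and 67524 (2.04). Bcas1 read 39158, 32266 and 37868 against 96164 and 95400 (1.40). All 3 passed the rule. The other higher members were Myrf, Tcf7l2, Tns3, Fyn, Nkx2-2, Sox10, Ust and Frmd4a. Members that did not pass included Rnf122 (0.42), Cnksr3 (0.80) and Kif21a (-0.09).

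Progenitor genes split. Of 16 measured genes of the oligodendrocyte progenitor list, 5 were higher and none was lower, with a median of 0.11, which was -0.05 over members with a mean signal above 500. Gpr17, named above for the premyelinating stage, was placed on this list and not on the premyelinating list. Gpr17, a receptor gene of the transition to premyelinating cells, read 22012, 6777 and 13443 on arrays 1 to 3 and 67318 and 69477 on arrays 4 and 5 (2.44, within-set SD 0.70), so the cycling arrays were themselves uneven. Tnr, the matrix protein tenascin-R, read 9974, 6396 and 8678 against 40284 and 34807 (2.19). Matn4, Sox5 and C1ql1 were the other 3, at 2.01, 1.13 and 1.04, and the 7 probe sets of Sox5 ran from -1.42 to 1.27.

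Both genes that define dividing progenitors did not pass the rule. Pdgfra, the receptor for the progenitor mitogen PDGF-A, read 55306, 47447 and 59138 on arrays 1 to 3 and 38111 and 37323 on arrays 4 and 5 (-0.51). Cspg4, which encodes NG2, read 9672, 7500 and 13702 against 5788 and 6015 (-0.76). Neither difference reached 2-fold, and both genes stayed far above background on arrays 4 and 5. Olig1, a lineage transcription factor, read 108906, 92128, 107642, 93386 and 104637 on arrays 1 to 5, and Olig2 read 72739, 68314, 77016, 64617 and 65766. Both were bright on all 5 arrays, with differences of -0.05 and -0.16.

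Myelin genes divided. Of 27 measured, 9 were higher and 1 lower, with a median of 0.29, which was 1.01 over members with a mean signal above 500. Fa2h, which hydroxylates the fatty acids of myelin lipids, read 1993, 829 and 1556 on arrays 1 to 3 and 9604 and 10646 on arrays 4 and 5 (7.30-fold). Gal3st1, which sulphates galactosylceramide, read 3050, 2013 and 2738 against 10693 and 10804 (2.06), and Ugt8a, the transferase that makes galactosylceramide, read 12660, 9514 and 13483 against 27455 and 25223 (1.16). The 3 enzymes passed the rule, so both low cycling arrays exceeded every cycling array.

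Mbp, the myelin basic protein gene, read 1592, 1443 and 1546 on arrays 1 to 3 and 6055 and 6971 on arrays 4 and 5 (2.08), and its 8 probe sets were all higher, by 1.25 to 2.15. Cnp, an early enzyme of the lineage, read 44147, 34288 and 38881 against 88543 and 99797 (1.27). Cldn11, the tight junction protein of myelin, read 3599, 4742 and 2390 against 11098 and 9333 (1.56). Mag, an adhesion protein at the inner myelin layer, read 259, 770 and 37 against 1370 and 1451 (2.66), with array 3 below background and array 2 above the other cycling arrays. Plekhb1 and Apod were the other higher members. Mog, Mobp and Opalin, further genes of mature myelin, were picked after their values were seen and do not stand for the rest. Mog was below background on all 5 arrays. Mobp read 236, 176, 115, 44 and 40 on arrays 1 to 5, above background on arrays 1 and 2 only. Its difference was the lowest of the list (-1.68), but array 3 lay below background, so it did not pass the rule. Opalin read 254, 169, 226, 215 and 152, near the background level. Cryab, a small heat shock protein of mature oligodendrocytes, read 12242, 9434, 2108, 2519 and 2060, with array 3 level with arrays 4 and 5. Lpar1, a lysophosphatidic acid receptor, was the member called lower by the rule (-1.65).

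**Figure D3:**
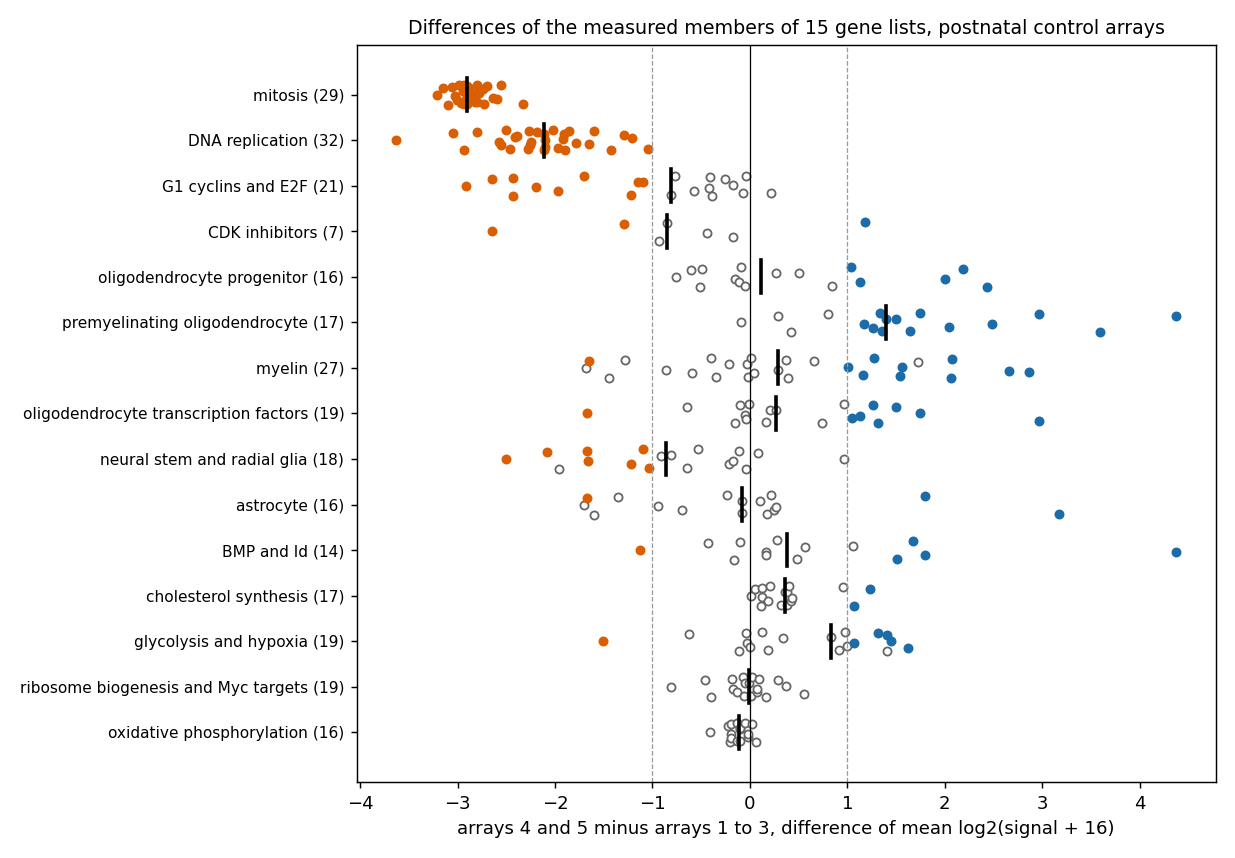
Each point is a measured gene of 15 lists (rows, with the number of genes), at its difference between arrays 4 and 5 and arrays 1 to 3 on the log2 scale (horizontal axis), filled where it passed the rule and open where it did not, with a black bar at the list median. The mitosis list (median -2.90) and the DNA replication list (-2.11) lie wholly on the lower side, the premyelinating list (1.40) mostly on the higher side, and the myelin list (0.29) is spread over both.

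Of 19 measured transcription factors of the lineage, 7 were higher and 1 was lower. Sox10, which drives oligodendrocyte genes together with Myrf, read 19082, 10721 and 20093 on arrays 1 to 3 and 37463 and 39456 on arrays 4 and 5 (1.26). Nkx2-2, a factor of differentiation onset, read 11772, 8960 and 13856 against 30067 and 34245 (2.83-fold). Tcf7l2, a Wnt pathway factor of the premyelinating stage, read 2579, 2199 and 2509 against 8694 and 7644 (1.74). Sox9, a glial factor of progenitors and astrocytes, was the lower member and read 9089, 9179 and 9313 against 3119 and 2635 (-1.68). All 4 passed the rule, which requires sets that do not overlap. The lists share members, so these counts are not separate from those above. Sox10, Nkx2-2, Myrf and Tcf7l2 were also counted as higher premyelinating genes, and Sox5 as a higher progenitor gene. Sox8 and Zeb2 were the other higher factors. Sox9 is counted again in the neural stem and astrocyte lists below.

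Neural stem and radial glia genes had 7 of 18 lower and none higher, with a median of -0.86. Vim, an intermediate filament, read 107244, 110412 and 104638 on arrays 1 to 3 and 34843 and 33009 on arrays 4 and 5 (-1.66). Prom1, which encodes CD133, read 4183, 3374 and 2460 against 545 and 579 (-2.51). Nes, Sox1 (-1.22), Pax6 (-1.10), Hes1 (-1.03) and Sox9 were the other lower members. Sox2 and Fabp7 were level: Sox2 read 60274, 58881, 60735, 65446 and 61734 and Fabp7 read 112127, 102612, 113405, 99686 and 113191 on arrays 1 to 5.

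Astrocyte genes did not follow the split. Of 16, 2 were higher (S100b and Id3, both also known outside astrocytes) and 1 was lower (Sox9), with a median of -0.08. Gfap, the astrocyte filament, read 21873, 2843 and 318 on arrays 1 to 3 and 976 and 1163 on arrays 4 and 5. Clu read 18029, 11283 and 1389 against 2429 and 1910, and the gap junction gene Gja1 read 55701, 33002 and 1344 against 4372 and 3948. For these genes array 1 was the highest, array 3 the lowest, and the low cycling arrays lay between them, so the cycling arrays were not uniform. The mean of the astrocyte list ran from 10.98 to 13.07 on arrays 1 to 3 and from 12.01 to 12.07 on arrays 4 and 5. Of 18 neuronal genes 1 was higher (5.56%, against 2.65% of all genes), Dcx, a microtubule protein of migrating neuroblasts (1.27).

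The largest rises held further genes beside the lists. Tafa2, a secreted chemokine-like protein, read 852, 773 and 753 on arrays 1 to 3 and 15356 and 13203 on arrays 4 and 5 (17.7-fold). Gpc3, a glypican, was below background on the cycling arrays with 71, 120 and 53 and read 1492 and 1904 on arrays 4 and 5, at least 11.02-fold higher when the dim arrays are set at their background. Col9a1, a collagen chain, read 3873, 2444 and 4371 against 35722 and 33104 (9.90-fold). S100b, a calcium-binding protein of glia, read 3184, 2696 and 1591 against 20293 and 23080 (3.17 on the log2 scale). All 4 passed the rule, and so had no overlap. Gp1bb, Dixdc1, Srpk3 and Lims2 were 7.42- to 9.06-fold higher, and the cartilage matrix gene Matn1 and the tensin gene Tns2 at least 7.17- and 6.75-fold higher. Dock9 was 7.81-fold higher at the probe set used, but its 5 probe sets ran from -2.36 to 3.04.

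Signalling lists differed in how many members passed the rule. On the BMP and Id list 4 of 14 were higher (28.6%, against 2.65% of all genes) and 1 lower. The 4 include Bmp4, counted above with the premyelinating genes. Id1, a target of BMP signalling that inhibits basic helix-loop-helix factors, read 3924, 5341 and 3565 on arrays 1 to 3 and 13398 and 13553 on arrays 4 and 5 (1.67), and its relative Id3 read 5611, 5154 and 4162 against 17874 and 16462 (1.79). The BMP antagonist Nog was also higher (1.51), near background on the cycling arrays, and the ligand Bmp7 was lower (-1.13). Of 13 ErbB genes 2 were higher (15.4%). The ligand Tgfa read 12041, 8055 and 13360 against 32999 and 28243 (1.48), and the receptor Erbb3 read 281, 222 and 462 against 617 and 707 (1.07). Of 25 genes of ERK output 6 were lower (24.0%, against 4.72% of all genes), with Phlda1 (-1.85), Egr3 (-1.80) and the feedback inhibitor Spry4 (-1.45) at the head, while Egr1 (-0.20) and Fos (-0.05) did not pass. None of 11 PDGF and FGF genes passed, and 1 of 15 Notch genes (Hes1) was lower (6.67%, near the 4.72% of all genes).

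Ribosomal and respiratory genes did not follow the split. None of 19 ribosome biogenesis genes (median -0.01) and none of 16 oxidative phosphorylation genes (median -0.12) passed the rule, and Npm1, a nucleolar protein, read 89075, 82474, 83696, 77551 and 84837 on arrays 1 to 5. Cholesterol synthesis, which supplies myelin, had 2 of 17 higher (11.8%, against 2.65% of all genes), Lss at 1.23 and Hsd17b7 at 1.07. All 17 differences were at 0.0091 or above, with a median of 0.36. Of 20 fatty acid genes Elovl7 (2.14) and Acsl3 (1.07) were higher. On the list of glycolysis and hypoxia genes 5 of 19 were higher and 1 lower, with a median of 0.83. Bnip3, a mitophagy gene induced by hypoxia, read 7561, 6480 and 5203 against 15890 and 17958 (1.41), and Hk2, a hexokinase, read 1684, 2431 and 2083 against 5558 and 5675 (1.45). Pdk1 (1.31), Ankrd37 (1.62) and Egln3 (1.06) were the others. Pgk1 (0.0038) and Aldoa (-0.04), bright enzymes of glycolysis, did not differ past the rule, nor did any of 14 lysosomal genes.

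Chromatin and DNA methylation genes had 4 of 18 lower (22.2%), against 4.72% lower and 2.65% higher among all genes. The 4 are known from proliferating cells: Hmga2, the helicase Hells (-2.62), Hmgb2 (-2.10) and the maintenance methyltransferase Dnmt1 (-1.31). Interferon genes had 3 of 16 lower (18.8%), of which Ifit2 had the largest difference (-2.13). Stress genes had 2 of 16 lower (12.5%), Phgdh (-1.12) and Atf5 (-1.04). Of 8 measured Schwann cell and neural crest genes 2 were higher (L1cam at 1.92 and Ngfr at 1.10) and 2 lower (Pmp22 at -1.67 and Pou3f1 at -1.44). Of 18 matrix genes Lamb1 (1.25) and Timp3 (1.04) were higher and Timp1 lower, and of 10 ependymal genes Cfap126 was lower (-1.20).

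Within the low cycling set, 2 genes of all lists that were above background on both arrays differed at least 2-fold between arrays 4 and 5: Nes (1.37 higher on array 4) and Apod (1.18 higher on array 4). Apod counts among the 9 higher myelin genes, with 140, 69 and 69 on arrays 1 to 3 and 438 and 184 on arrays 4 and 5, so its size rests mainly on array 4.

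Measured over all 20 arrays, low mitotic signals were not limited to these 2 arrays. The mean log2 level of the mitosis list was 13.97 to 14.10 in embryonic control, 13.78 to 13.93 in embryonic transduced, 13.68 to 13.74 on the cycling arrays, 10.80 and 10.89 on the low cycling arrays and 11.23 to 11.46 in postnatal transformed cells. The premyelinating list was different: its mean was 13.55 and 13.62 on the low cycling arrays and 10.69 to 12.03 on all others, with postnatal transformed cells at 11.62 to 11.78. The postnatal transformed arrays were thus close to the low cycling arrays for mitosis genes and apart from them for premyelinating genes. Bmp4 had a mean signal of 210 ± 81.6 (SD, n = 5) in postnatal transformed cells, and Enpp6 of 169 ± 37.9, above background on 4 and 3 of the 5 arrays. Myelin genes gave another order, with list means of 9.91 and 10.06 on the low cycling arrays and 10.04 to 10.38 in postnatal transformed cells.

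**Figure D4:**
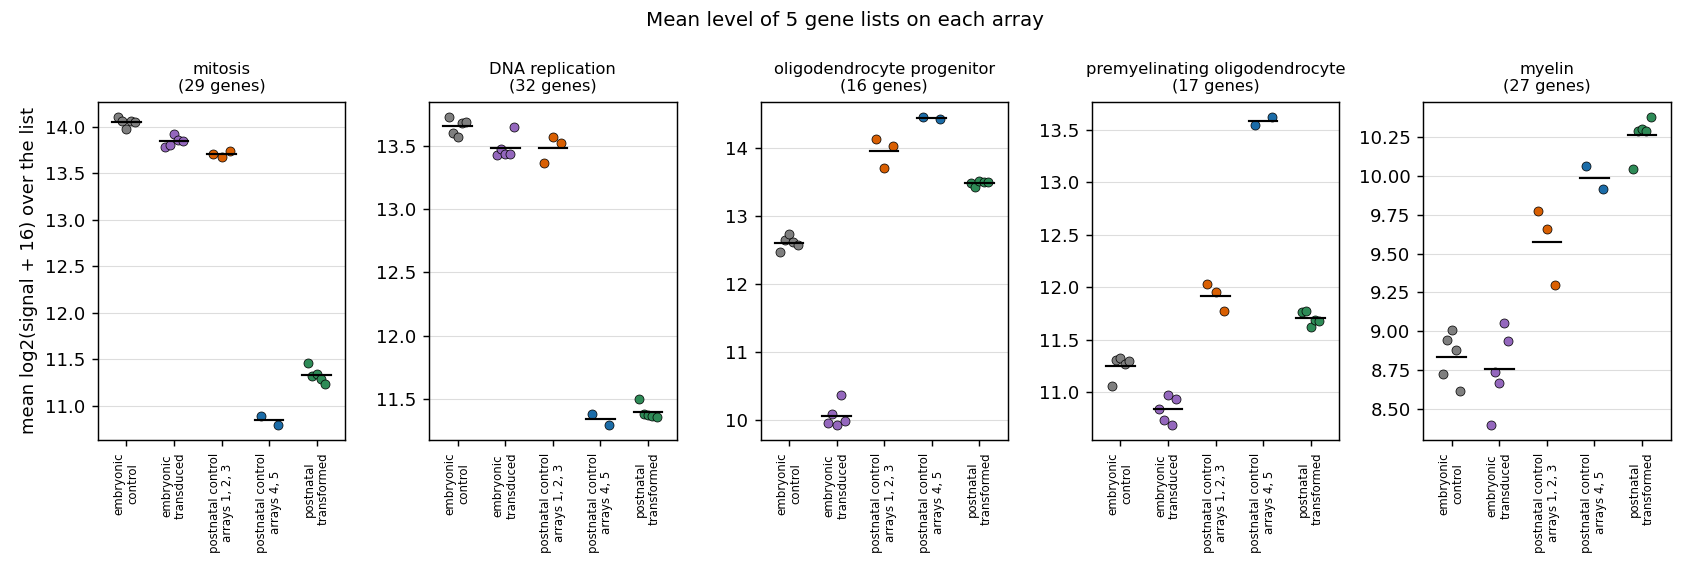
Each point is the mean log2(signal + 16) over the measured members of a list on an array (vertical axes, which do not start at 0 and differ between panels), in the same sets of arrays as for the markers, with bars at the means. The low cycling arrays are level with or below the postnatal transformed arrays for the mitosis and DNA replication lists and stand alone, at 13.55 and 13.62, for the premyelinating list.

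Tests were possible between groups that the choice did not use. The limma fit drew its spread from all 20 arrays, so the split within postnatal control widened the errors of genes that differed between the sets, and values from a fit without the 5 postnatal control arrays are given beside it. In the fit over all arrays, 2135 genes were higher (11.7%) and 2499 lower (13.7%) in postnatal transformed than in embryonic transduced cells at an adjusted p under 0.05 and at least 2-fold. The counts without the postnatal control arrays were 2154 and 2527. The balance of directions depended on the scale: after quantile normalization 2422 genes were higher and 2200 lower, and the median change over all genes was 0.0011 in place of -0.14. All 29 mitosis genes were lower (median -2.57), as were 28 of 32 DNA replication genes (median -2.28), and none of either list was higher, with the same numbers lower after quantile normalization and without the postnatal control arrays. Mki67 was lower by 2.79 ± 0.44 (log2 change and standard error, limma adjusted p = 1.06e-05), Kif11 fell by 2.57 (adjusted p = 2.75e-05) and Bub1 fell by 3.19 (adjusted p = 1.03e-06). Without the postnatal control arrays the standard error of Mki67 was 0.086 and its limma adjusted p 5.69e-17. This comparison joins age, transduction and transformation, which cannot be told apart.

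In the same comparison Cdkn1a did not pass (0.27, limma adjusted p = 0.633, or 0.00466 and under 2-fold without the postnatal control arrays), with mean signals of 33383 in postnatal transformed and 27727 in embryonic transduced cells. Premyelinating genes had 7 of 17 higher (41.2%) and 3 lower (17.6%), against 11.7% higher and 13.7% lower among all genes. These counts were the same without the postnatal control arrays. For Bmp4 the difference was -1.02 with a standard error of 0.78 (limma adjusted p = 0.298), which was 0.46 without the postnatal control arrays (adjusted p = 0.0687). For Enpp6 it was 0.51 with a standard error of 0.72 (adjusted p = 0.590), or 0.50 without those arrays (adjusted p = 0.419). Neither gene passed in either fit, and a p above the threshold does not show equal levels. Myrf was higher by 1.72 (adjusted p = 0.0142), and without embryonic transduced array 4, the dimmest of its group, it did not pass (1.41). Progenitor genes had 13 of 16 higher (81.2%) and none lower, and myelin genes 14 of 27 higher (51.9%) and 1 lower (3.7%). Of the 482 genes higher on the low cycling arrays 183 (38.0%) were higher and 45 (9.34%) lower in postnatal transformed cells. Of the 858 lower genes 441 (51.4%) were lower and 112 (13.1%) higher. Among all genes 11.7% were higher, near the 13.1%, and 13.7% were lower. Those shares include genes below background, whereas the 482 and 858 were called only where the brighter set was above it.

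**Figure D5:**
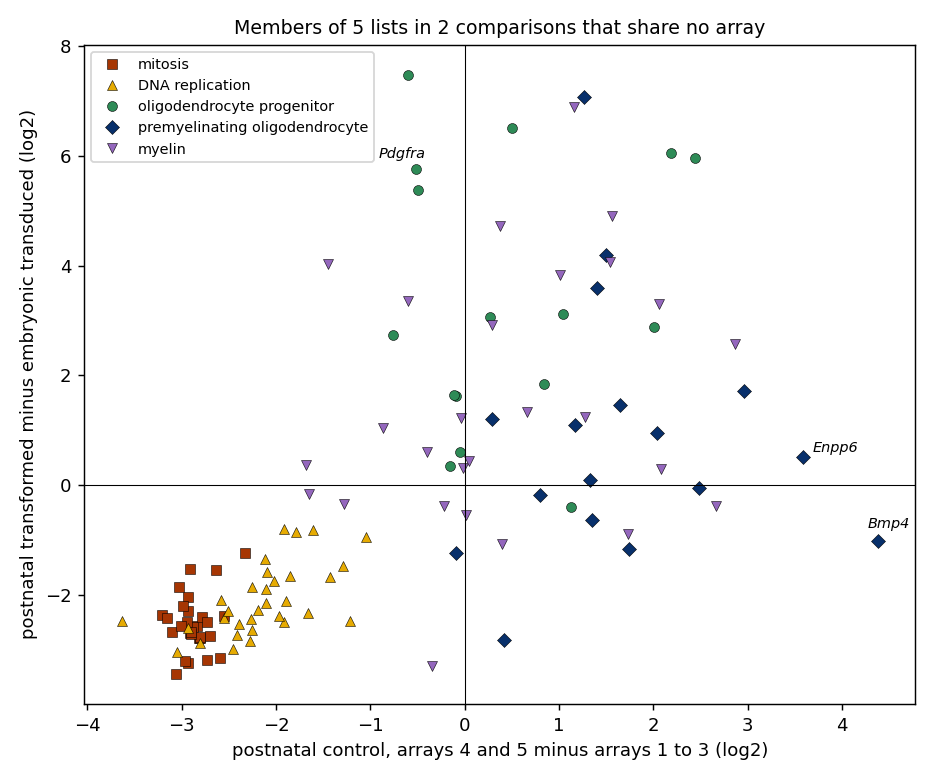
Members of 5 lists are placed by their difference between postnatal control arrays 4 and 5 and arrays 1 to 3 (horizontal axis, log2) and by their change between postnatal transformed and embryonic transduced cells (vertical axis, log2), which share no array. Mitosis and DNA replication genes lie at the lower left, while Bmp4 and Enpp6 lie far right at vertical values of -1.02 and 0.51.

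Between embryonic transduced and embryonic control cells, where no group had low mitotic signals, 1567 genes were higher (8.61%) and 1044 lower (5.74%) by limma, against 1330 and 1269 after quantile normalization and 1611 and 1064 without the postnatal control arrays. Of the mitosis list 1 of 29 was lower, Ndc80, a kinetochore gene, and of the DNA replication list 2 of 32, Gins1 and Rrm2. Progenitor genes were lower in 11 of 16 and premyelinating genes in 5 of 17, with 1 of the latter, Kif21a, higher. Without the postnatal control arrays in the fit 3 premyelinating genes were higher: Kif21a, Bmp4 (1.43, limma adjusted p = 0.0148, against 0.165 in the fit over all arrays) and Myrf (1.43, adjusted p = 0.00463, against 0.0520). Cdkn1a was higher, with mean signals of 27727 against 5779. Glycolysis and hypoxia genes were higher in 12 of 19 and lower in 1. Of the 482 genes higher on the low cycling arrays 81 (16.8%) were higher and 86 (17.8%) lower in this comparison. Of the 858 lower genes 106 (12.4%) were higher and 72 (8.39%) lower. Among all genes, those below background included, 8.61% were higher and 5.74% lower.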

How the data were processed

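The authors deposited linear intensities, with a signal for every one of 45101 probe sets on each of 20 arrays. The software is not given in the sources used here. After trimming 2% off each end all array means were 2500.01 to 2500.02, so the intensities were taken as deposited. Probe sets with a single gene symbol gave 18193 genes, each by its brightest probe set, and differences are of log2(signal + 16), so that folds of dim genes are understated. Background was the 95th percentile of 27 bacterial control probe sets on each array, also the floor of "at least" folds. The 4 group means were fitted over 20 arrays with limma 3.58.1 (lmFit, eBayes with trend, two-sided) in R 4.3.3, and p-values were adjusted by Benjamini-Hochberg over 18193 genes. Alternatives included quantile normalization and a fit without the 5 postnatal control arrays, whose split enters the shared spread. Both rules were tested on simulated data. Precision is limited by 2 and 3 arrays in the sets and 5 in the groups.

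The members, 35 gene lists and tests were chosen with earlier results of these data known. Lists share members, so a gene can enter several counts. Named genes are the 8 markers, the 15 largest rises and 15 largest falls with background as a floor and clone names passed over, and from each list up to 6 members past the rule and up to 3 others by signal. Bcas1, Ugt8a, Cnp, Mog, Mobp, Opalin, Apod, Gfap, Clu, Plk1, Cdc20, Mcm6, Rrm1 and Pcna were named outside it, after their values were seen, and genes named without values complete a count.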

Additional observations from a re-analysis of the deposited data

Results flagged for a closer look

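In 80 groups of 5 values (12 list means and 8 markers in each of 4 groups), 7 held an array whose gap to the nearest other, divided by the group's range, was above the critical value of 0.71, and chance marks about 1 in 20 groups. None of the 7 lay within postnatal control, where arrays 4 and 5 form a pair and so hide from a measure that looks for a single array. The mean log2 of the DNA replication list was 13.64 on embryonic transduced array 5 against 13.43 to 13.47 on the others (ratio 0.783), and 11.50 on postnatal transformed array 1 against 11.36 to 11.38 (ratio 0.86). Postnatal transformed array 1 also had a lower mean for the myelin list, 10.04 against 10.28 to 10.38 (ratio 0.725). Embryonic control array 1 had a mean of 11.06 for the premyelinating list against 11.27 to 11.33 (ratio 0.779). For Kif11, embryonic control array 2 had a log2 signal of 13.64 against 13.85 to 13.90 (ratio 0.793). Cdkn1a was lower on embryonic transduced array 5, with 14.45 against 14.82 to 14.84 (ratio 0.943). Myrf was lower on embryonic transduced array 4, with 7.28 against 8.65 to 9.02 (ratio 0.788).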

How the results depend on the processing

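Of the genes called in the comparison of the low cycling with the cycling arrays, 475 of 482 higher and 776 of 858 lower were called again after quantile normalization, and 465 and 858 after centring on the 75th percentile. The counts were 101 genes higher and 255 lower at a 4-fold threshold, 777 were higher with no background condition, and 312 were higher among genes with a mean signal over 500. Leaving out any of arrays 1 to 5 of postnatal control gave 526 to 852 higher genes, most without array 4, and 903 to 1224 lower genes, most without array 3. The mitosis median ran from -2.97 to -2.83 on leaving out an array and was -2.69 with the mean of all probe sets of a gene. The myelin median ran from 0.17 to 0.52 on leaving out an array and was 1.01 over genes with a mean signal over 500. The progenitor median was 0.26 with the mean of all probe sets and -0.054 over genes with a mean signal over 500, so its sign is not settled.

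In the limma comparisons leaving out an array gave 2096 to 2148 higher and 2410 to 2589 lower genes between postnatal transformed and embryonic transduced cells, and 1497 to 1627 higher and 998 to 1060 lower between the embryonic groups. The latter had 1039 higher genes with a mean signal over 500. Centring on the 75th percentile gave 2288 higher and 2299 lower genes in the former and 1377 and 1192 in the latter. Same-numbered arrays of the groups compared deviated with correlations from -0.053 to 0.032, so no sign of pairing by number was seen there. Postnatal control arrays were not in this check, and low correlations do not show that samples were unpaired. With a replicate block the counts were 2141 higher and 2507 lower, and 1559 higher and 1042 lower between the embryonic groups. No named difference between the sets that passed the rule changed sign under these settings. With 2 arrays in the low cycling set, how far other such cultures would vary was not measured. A gene below background on all arrays of a set has only a bound there.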
